A study of Mus musculus with 15 samples.

Results

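Treated and GP cultures of MC3T3 cells were compared at day 1 over 6 of the 15 arrays of the study, 3 from each kind of culture. MC3T3 clone 1b is a line of osteoblast precursors taken from mouse calvaria, the flat bone of the skull. Control cultures had beta-glycerol phosphate (GP), a source of phosphate for mineral, and the cultures called treated here had GP together with ascorbic acid (AA) and bone morphogenetic protein 2 (BMP-2). GP was therefore shared by both groups, and AA and BMP-2 came only together, so their effects cannot be told apart. The other 9 arrays held cells in growth medium at day 0 and both kinds of culture at day 3. Each array carried a prep number from 1 to 3, and differences were taken within preps. All cells were of 1 clone, and whether the preps were separate cultures is not stated, so the p-values rest on a spread between arrays that may be only technical. Of 12422 probe sets other than controls, 7271 had a mean signal of at least 24.9 intensity units, the 40th percentile, and were tested. They stood for 5533 named genes, each read from its brightest probe set.

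BMP-2 binds paired serine/threonine kinase receptors, which phosphorylate Smad1 and its relatives. These join Smad4 in the nucleus and switch on the Id genes, homeobox genes of the Dlx and Msx families, and the inhibitory Smads 6 and 7, which restrain the pathway. In osteoblast precursors the pathway is known for raising alkaline phosphatase and other genes of bone formation. Ascorbic acid is a cofactor of enzymes that hydroxylate proline, among them those that mature collagen and those that mark the hypoxia-inducible factor HIF for destruction.

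All 15 arrays had a trimmed mean of 149 to 150 units. On the 6 arrays at day 1, between 8.70% and 12.7% of values lay at or under the floor of 2.8 units, and the shares of 12.1% and 12.7% were those of prep 3. The ratio of actin signal from 3' to 5' probe sets, a sign of RNA quality, was 1.01 to 1.24 on these 6. Among the other arrays, GP prep 3 at day 3 had a ratio of 2.11, with 14.3% of values at or under the floor. The next highest ratio was 1.34, in treated prep 3 at day 3. The GP prep 3 array of day 3 entered the shared fit and every day 3 difference below. The first principal component of all arrays, with 33.1% of the variance, set prep 3 apart, at -24.6 to -38.7 against 1.56 to 24.9 for preps 1 and 2. Of 12 mesenchymal and osteoblast-lineage markers on the array, 11 passed the signal filter, and their summed signal was 24222 to 32537 units with GP and 25522 to 34124 in treated cultures. Vim was the exception, with a dim probe set at 13.7 to 37.8 units. Markers of 6 other cell types were mixed. Of 14 macrophage and osteoclast markers 4 passed, with Cd14 at 356 to 984 units, Ctsk at 214 to 409.6 and Ptprc, which white blood cells carry, at 0.4 to 2.6. Their summed signal was 944 to 1548 units with GP and 855 to 1368 in treated cultures. Of 10 adipocyte markers 2 passed, Cebpa at 125 to 242 units and Lep at 138 to 180.4, while Adipoq was at 1.8 to 8.9, and the sums were 342 to 408 and 357 to 444. Of 10 epithelial markers Cdh1 passed at 85.6 to 170 units, while Epcam was at 1.2 to 2.4, and the sums were 123 to 206 and 130.2 to 248. Of 11 chondrocyte, 17 skeletal muscle and 10 endothelial markers 3, 4 and 2 passed, and the largest of their sums was 371 units. None of the markers of the 6 types that passed was called, and their part in the results was not tested.

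After 1 day, the genes that rose in treated cultures included BMP targets, alkaline phosphatase, the prostaglandin synthase Ptgs2 and some genes of ribosome assembly and DNA replication. Those that fell included members of the HIF response and glycolysis, of antigen presentation and the interferon response, and of the extracellular matrix. In limma with prep as a block and Benjamini-Hochberg adjustment at 0.05, 156 probe sets were called higher, 2.15% of those tested, and 220 were called lower, 3.03%. By gene, 133 of 5533 were higher (2.4%) and 180 lower (3.25%). In all 313 the difference had the same sign in the 3 preps, which a call within preps favours and which is no separate support. Over all 5533 genes, 1258 were higher in all 3 preps and 1266 lower in all 3. A change of more than 1 on the log2 scale was seen in 35 of the higher and 83 of the lower probe sets. The values of both groups did not overlap in 293 of the 376 called, against 1249 of all 7271 tested. Without the prep term 59 genes passed, 1.07% of those tested, 20 higher and 39 lower, and all 70 of the probe sets called without it were also called with it. Without GP prep 2, the array whose loss lowered the count most, 39 probe sets were higher and 65 lower. The number of arrays limits the precision.

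**Figure D1:**
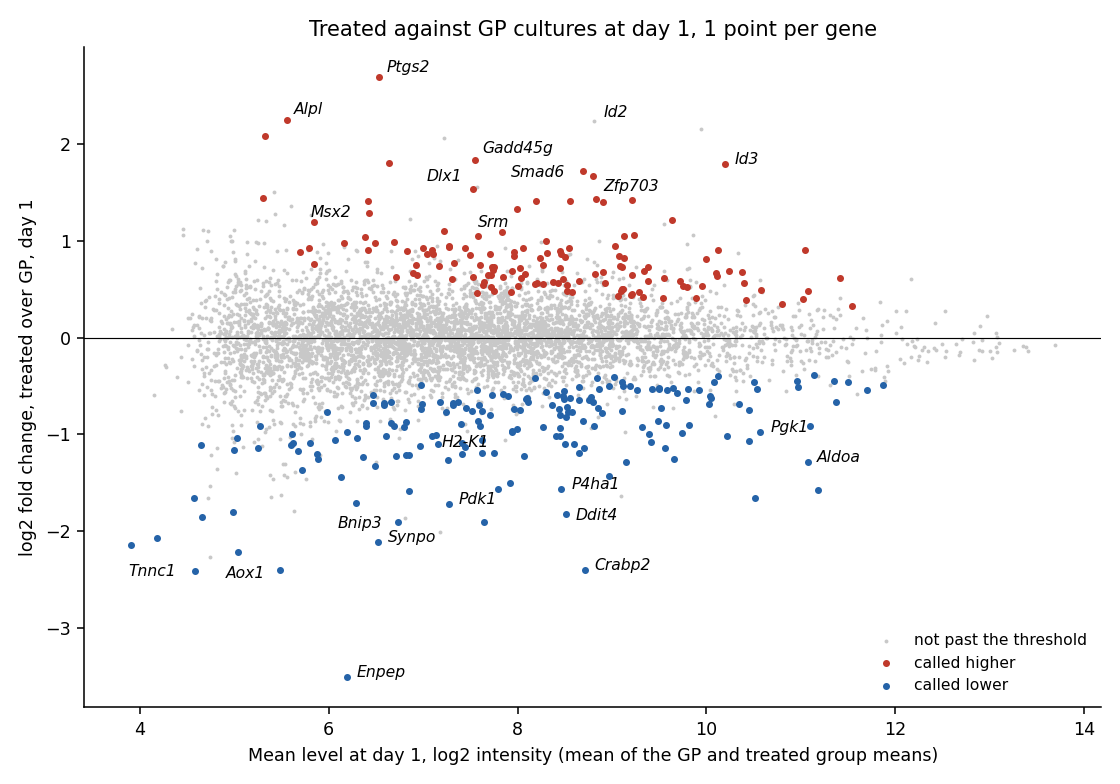
Log2 fold change of each of 5533 genes at day 1, treated over GP (vertical), against its mean level in log2 intensity (horizontal). Red points are the 133 genes called higher and blue points the 180 called lower; Enpep lies lowest at -3.51, Ptgs2 highest at 2.69, and Id2 is drawn in grey because it missed the threshold.

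Of 22 tested targets and feedback genes of BMP signalling, 10 rose, 1 fell and 11 did not pass, and without the prep term 5 rose. Over all genes tested 2.4% were called higher and 3.25% lower, and these shares stand beside the counts of every list below. A single call in a list is no result about that list. The median log2 fold change of the 22 was 1.08, against 0.00 over all genes tested, and the medians within preps 1, 2 and 3 were 0.97, 0.89 and 0.99. Smad6, an inhibitory Smad, read 177, 248 and 262 units with GP and 729, 703 and 804 units in the treated cultures. Every treated array lay above every GP array, and the log2 fold change was 1.72 ± 0.29 (SE, n = 3 arrays per group, limma adjusted p = 0.00421). Smad7, the other inhibitory Smad, read 93.7, 139.7 and 74.3 units with GP and 262, 178 and 207 units in the treated cultures, a rise of 1.11 ± 0.21 (adjusted p = 0.0085) with no overlap. The Id proteins hold back differentiation factors by pairing with them. Id3 read 856, 574 and 446 units with GP and 2657, 2759 and 1238 units in the treated cultures, higher in each prep and with no overlap, although prep 3 was the lowest in both groups (1.79 ± 0.30, adjusted p = 0.00444).

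Id2 and Id1 had differences of 2.24 ± 0.61 and 1.55 ± 0.43 without passing (adjusted p = 0.0516 and 0.0529). Id2 passed under 6 of 20 alternatives and Id1 under 5, with lowest adjusted p values of 0.00106 and 0.00181. Both passed with array weights, with the signal filter at the 60th percentile, over the 6 day 1 arrays alone and without prep 3. Id2 read 191, 147 and 294 units with GP and 955.5, 999.5 and 909.7 units in the treated cultures. The treated arrays of Id2 were close to each other and the GP arrays were not, and the groups did not overlap. Id1 read 161, 85.7 and 83.1 units with GP and 439.6, 353 and 186 units in the treated cultures, and its lowest treated array stood just above its highest GP array. Id4 was the member of the list that fell (-0.91 ± 0.21 on the log2 scale, adjusted p = 0.0273). It read 587, 724 and 507 units with GP and 472, 309 and 224 units in the treated cultures, and prep 1 had the smallest decrease.

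The homeobox genes Dlx1, Dlx2, Dlx5 and Msx2, which pattern the skeleton and regulate osteoblast genes, rose. Dlx1 read 111, 138 and 76.4 units with GP and 366, 374 and 208 units in the treated cultures (1.54 ± 0.22, adjusted p = 0.00166). Dlx2 read 203, 161 and 175 units with GP and 510.3, 413.5 and 509 units in the treated cultures (1.41 ± 0.19, adjusted p = 0.00111). Neither gene had overlapping groups, and prep 3 of Dlx1 was low in both. Msx2 read 60.8, 74.4 and 34.2 units with GP and 134, 126 and 133 units in the treated cultures (1.29 ± 0.24, adjusted p = 0.0085), with treated arrays near a common level. Dlx5 had the smallest rise of these genes, 0.87 ± 0.20 (adjusted p = 0.0247). Among growth-arrest and stress genes of the list, Gadd45g read 68.8, 77.3 and 164 units with GP and 323, 337 and 358 units in the treated cultures (1.83 ± 0.29, adjusted p = 0.00292). Gadd45b, read by a probe set that shares sequence with other transcripts, rose by 1.41 ± 0.23 (adjusted p = 0.00407), and its second probe set gave 1.09 and did not pass. Klf10, a zinc finger factor induced by TGF-beta, rose by 1.05 ± 0.17 (adjusted p = 0.00331). Nog, a secreted BMP antagonist, differed by 0.10 ± 0.31 (adjusted p = 0.917).

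Of the targets that passed, Smad6, Dlx1, Dlx2, Gadd45b and Klf10 also passed without the prep term, where the adjusted p was 0.0588 for Gadd45g, 0.0573 for Id3, 0.061 for Smad7, 0.0961 for Dlx5, 0.156 for Msx2 and 0.244 for Id4. Leaving out 1 array ended the call of Smad7, Dlx5 and Id4 in 1, 5 and 4 of 6 fits. The adjusted p was up to 0.0516 for Smad7 (GP prep 3), 0.113 for Dlx5 (GP prep 2) and 0.163 for Id4 (GP prep 2). Leaving out the whole of prep 2 ended the calls of Id3, Smad6, Gadd45g, Gadd45b, Klf10, Dlx1, Dlx2, Dlx5, Msx2 and Id4. Without prep 1, those of Id3, Smad6, Gadd45g, Gadd45b, Klf10, Dlx5, Msx2 and Smad7 were lost. Without prep 3, Msx2, Smad7 and Id4 lost theirs.

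Promoters of the list were searched on both strands for the GC-rich Smad element GGCGCC, in windows of 300 bases (250 before to 50 after the start) from RefSeq on GRCm38.p6. It occurred in 5 of 16 promoters of the list (31.2%) and in 1 of 7 promoters of its members called higher (14.3%), against 21.5% of promoters of all genes tested and 11.9% of all 32851 promoters. The member called higher that held it was Dlx2, whose 250 bases before the start (chr2:71546755-71547004, minus strand) are shown for this reason, with the element in capitals, 99 bases before the start.
Dlx2: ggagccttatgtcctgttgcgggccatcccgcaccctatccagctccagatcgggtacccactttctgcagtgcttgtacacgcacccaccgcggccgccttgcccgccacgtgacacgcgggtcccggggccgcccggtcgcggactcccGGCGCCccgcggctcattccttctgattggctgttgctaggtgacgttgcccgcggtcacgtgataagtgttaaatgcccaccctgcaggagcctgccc
No match was found in the windows of Id3, Smad6, Dlx1, Msx2, Gadd45b and Gadd45g, which says only that these letters are not in these windows.

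Of 18 tested ligands, receptors, Smads and extracellular regulators of the pathway, 2 rose and none fell, and their median was 0.04. Tgfb3, a ligand of the related TGF-beta pathway, read 436, 448 and 669.8 units with GP and 884, 1153 and 1619 units in the treated cultures (1.22 ± 0.26, adjusted p = 0.0163) with no overlap. Smad1, which carries the BMP signal, rose by 0.75 ± 0.15 (adjusted p = 0.0104). It read 229, 154 and 348 units with GP and 380.0, 326 and 469 units in the treated cultures, so that the groups overlapped and the rise was seen within preps. Its probe set carries a suffix for grouped probes, and its second probe set gave 0.44 and did not pass. Bmp4, a ligand, differed by -0.42 ± 0.22 (adjusted p = 0.314), while a second, dimmer probe set for it passed at -1.52. Without the prep term the adjusted p was 0.0562 for Tgfb3 and 0.471 for Smad1, and with the term kept and 1 array left out it reached 0.0999 for Tgfb3 (GP prep 2) and 0.0791 for Smad1 (GP prep 2).

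Of 11 tested osteoblast genes, 1 rose and none fell, with a median of 0.11. That gene was Alpl, tissue-nonspecific alkaline phosphatase, an early enzyme of mineralising osteoblasts. Alpl read 18.5, 18.2 and 23.9 units with GP and 61.8, 71.3 and 194 units in the treated cultures, and each treated array was above each GP array. Its log2 fold change was 2.24 ± 0.50 (adjusted p = 0.0211), but the size is uncertain because the GP mean was below the signal filter. With the floor raised to 45.7 units, the 50th percentile, it was 1.05 (adjusted p = 0.116). Without the prep term the adjusted p of Alpl was 0.0519. With that term kept and 1 array left out, the call of Alpl was lost in 5 of 6 fits. Its highest adjusted p was 0.0959 (without treated prep 3). Tnfrsf11b, the decoy receptor osteoprotegerin, read 118, 141 and 171 units with GP and 203, 270.4 and 211 units in the treated cultures, with a difference of 0.67 ± 0.22 that did not pass (adjusted p = 0.0926). Col1a1, the main collagen of bone, read 7782, 9031 and 10081 units with GP and 7643, 10356 and 8029.6 units in the treated cultures, and Sparc, a matrix protein of bone, read 2496, 3012 and 3337 units with GP and 2156, 3341 and 2787 units in the treated cultures. Their groups overlapped and their differences were -0.05 ± 0.13 and -0.11 ± 0.14 (adjusted p = 0.888 and 0.744). Lox, which crosslinks collagen, differed by 0.38 ± 0.16 (adjusted p = 0.211).

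Of 38 genes of the extracellular matrix list, 1 rose and 8 fell, with a median of -0.01. Without 1 array 3 to 6 fell, fewest without GP prep 2 or GP prep 3, and 1 did without the prep term. Tnc, the adhesion-modulating glycoprotein tenascin C, read 225, 236 and 589 units with GP and 457, 719 and 1819 units in the treated cultures. It was higher in each prep (1.42 ± 0.30, adjusted p = 0.0178), while the groups overlapped, with prep 3 high in both. Its other probe set gave 1.18 and did not pass. The members that fell included basement membrane genes. Col4a1, a chain of basement membrane collagen, read 426, 480.4 and 694.5 units with GP and 271, 214 and 250.0 units in the treated cultures (-1.10 ± 0.18, adjusted p = 0.00335). Nid2, which links laminin to that collagen, read 421.5, 327 and 453 units with GP and 192, 100.1 and 144 units in the treated cultures (-1.50 ± 0.20, adjusted p = 0.00111). Neither had overlapping groups. Lamc1, a laminin chain, fell (-0.54 ± 0.11 on the log2 scale, adjusted p = 0.0147), and Ogn, a small proteoglycan of bone matrix, fell from 1766, 2910.3 and 2916 to 472, 788 and 1275 units (-1.66 ± 0.28, adjusted p = 0.00407). The probe sets of Nid2 and Lamc1 carry suffixes for shared sequence. Ogn passed without the prep term, where the adjusted p was 0.189 for Tnc, 0.0953 for Col4a1, 0.0652 for Nid2 and 0.0554 for Lamc1. With the term kept and 1 array left out it reached 0.0997 for Tnc (GP prep 2) and 0.0791 for Lamc1 (GP prep 2).

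Some genes of the HIF response fell in treated cultures. Outside glycolysis, 7 of 19 tested fell and none rose, 18 of 19 differences were negative, and the median was -0.59 (-0.78, -0.50 and -0.60 within preps 1, 2 and 3). Pdk1, a kinase that keeps pyruvate out of the citric acid cycle, read 392.5, 196 and 269 units with GP and 77.4, 75.0 and 99.5 units in the treated cultures (-1.72 ± 0.21, adjusted p = 5.85e-04). P4ha1, the catalytic subunit of collagen prolyl 4-hydroxylase, read 654, 479.8 and 676 units with GP and 144, 249.5 and 228 units in the treated cultures (-1.57 ± 0.20, adjusted p = 8.32e-04). Both genes had treated arrays well under every GP array. P4ha1 was also the member of 13 collagen processing genes that was called, with the list's median at -0.02. Ddit4, an inhibitor of growth signalling, read 863, 760.0 and 467 units with GP and 174, 201 and 199 units in the treated cultures (-1.82 ± 0.27, adjusted p = 0.00214). Bnip3, a mitophagy receptor, read 341, 136 and 152 units with GP and 68.0, 61.7 and 31.9 units in the treated cultures (-1.91 ± 0.29, adjusted p = 0.00251). The treated arrays of Ddit4 were close to each other, and those of Bnip3 were lowest in prep 3.

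Kdm3a, a histone demethylase, read 267, 214.5 and 235 units with GP and 107, 89.4 and 101 units in the treated cultures (-1.27 ± 0.12, adjusted p = 1.86e-04). Ero1a, an oxidase of protein folding, read 261, 179.7 and 279 units with GP and 118, 149 and 153 units in the treated cultures (-0.76 ± 0.17, adjusted p = 0.0214), and its other probe set gave -0.55 and did not pass. Vegfa, the vascular growth factor, differed by -0.18 ± 0.49 and Hmox1, heme oxygenase, by -0.28 ± 0.11, and neither passed (adjusted p = 0.895 and 0.178). These last genes of the list were chosen after their values were seen, as were Pfkfb3 and B2m in other lists.

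In glycolysis, 4 of 14 tested genes fell and none rose, 12 differences were negative, and the median was -0.62 (-0.82, -0.13 and -0.43 within preps 1, 2 and 3). Aldoa, muscle-type aldolase, read 3690.0, 3336 and 3074.5 units with GP and 1441, 1323 and 1370.3 units in the treated cultures. The groups lay far apart, and the log2 fold change was -1.29 ± 0.09 (adjusted p = 1.43e-05). Its probe set carries a suffix for shared sequence, and a second probe set gave -1.19. Pgk1, phosphoglycerate kinase, read 2501, 2129 and 1786 units with GP and 1061, 1245.5 and 949 units in the treated cultures (-0.97 ± 0.15, adjusted p = 0.00255). Pfkl, a phosphofructokinase subunit, read 1361, 726 and 627.5 units with GP and 426, 396 and 253 units in the treated cultures (-1.29 ± 0.21, adjusted p = 0.00324), and Tpi1, triose phosphate isomerase, read 3665, 3353 and 2987 units with GP and 1930.4, 2099.7 and 2288 units in the treated cultures (-0.66 ± 0.12, adjusted p = 0.00779). In none of these 4 did the groups overlap, and the GP arrays of Pfkl spread widely, with prep 1 the highest. Pfkfb3, which makes an activator of glycolysis, went the other way with 1.21 ± 0.43 and did not pass (adjusted p = 0.120).

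Of these genes, Pdk1, P4ha1, Ddit4, Kdm3a, Aldoa and Pgk1 passed without the prep term. The others then had an adjusted p of 0.0636 for Bnip3, 0.115 for Ero1a, 0.141 for Pfkl and 0.0551 for Tpi1. Among the named members, leaving out 1 array ended the call of Ero1a, with an adjusted p of up to 0.0916 for Ero1a (GP prep 1). Leaving out the whole of prep 2 ended the calls of Ddit4, Pgk1 and Tpi1. Without prep 1 Tpi1 and Ero1a lost their calls, and without prep 3 Ero1a did.

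The core of the hypoxia element, ACGTG, was searched on both strands in the same RefSeq promoter windows. It occurred in 8 of 16 promoters of the 11 members called lower in these lists, in 57.7% of promoters of the HIF list outside glycolysis and in 56.5% of those of the glycolysis list. The share was 24.3% over promoters of all genes called lower, 40.5% over those of genes called higher, 26.5% over those of all genes tested and 19.6% over all promoters. Among promoters of the BMP targets called higher it was 4 of 7 (57.1%), so the core was not particular to genes that fell. The search also counts the core inside the longer E-box CACGTG. Some genes had several starts and so several promoters, and overlapping windows of Aldoa hold the same match, so the promoters counted are not independent. The 250 bases before the start are shown for 4 of the called members that hold the core, because these genes were among the decreases described above. Capitals mark the core on either strand.
P4ha1: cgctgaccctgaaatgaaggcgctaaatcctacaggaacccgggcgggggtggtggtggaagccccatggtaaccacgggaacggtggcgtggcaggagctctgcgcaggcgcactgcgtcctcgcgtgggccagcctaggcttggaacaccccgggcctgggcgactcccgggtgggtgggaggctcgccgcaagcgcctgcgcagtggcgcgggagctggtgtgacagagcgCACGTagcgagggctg
Pgk1: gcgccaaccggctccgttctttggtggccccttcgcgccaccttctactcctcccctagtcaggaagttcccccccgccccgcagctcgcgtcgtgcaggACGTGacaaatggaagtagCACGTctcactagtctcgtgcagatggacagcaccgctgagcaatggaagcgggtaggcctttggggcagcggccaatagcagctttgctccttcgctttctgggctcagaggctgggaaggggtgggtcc
Ddit4: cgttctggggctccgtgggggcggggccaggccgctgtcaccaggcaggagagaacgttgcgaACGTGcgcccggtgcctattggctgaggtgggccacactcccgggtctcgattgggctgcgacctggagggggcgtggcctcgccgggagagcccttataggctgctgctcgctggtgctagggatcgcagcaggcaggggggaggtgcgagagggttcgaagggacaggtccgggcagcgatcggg
Bnip3: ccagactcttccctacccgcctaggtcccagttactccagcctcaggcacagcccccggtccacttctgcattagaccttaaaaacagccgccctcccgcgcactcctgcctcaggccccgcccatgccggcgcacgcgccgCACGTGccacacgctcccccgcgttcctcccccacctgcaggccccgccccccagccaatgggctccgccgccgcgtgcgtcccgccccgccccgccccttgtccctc
These are chr10:59323046-59323295, plus strand, for P4ha1, chrX:106186850-106187099, plus strand, for Pgk1, chr10:59951771-59952020, minus strand, for Ddit4 and chr7:138909507-138909756, minus strand, for Bnip3, on GRCm38.p6. The core began 16 bases before the start in P4ha1, 150 and 131 bases before it in Pgk1 and 187 bases before it in Ddit4, and in Bnip3 a pair of overlapping matches began 108 and 107 bases before it. Pdk1, Kdm3a, Pfkl and Tpi1 had no match in their windows. A match describes the letters and is not a binding site measured here.

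**Figure D2:**
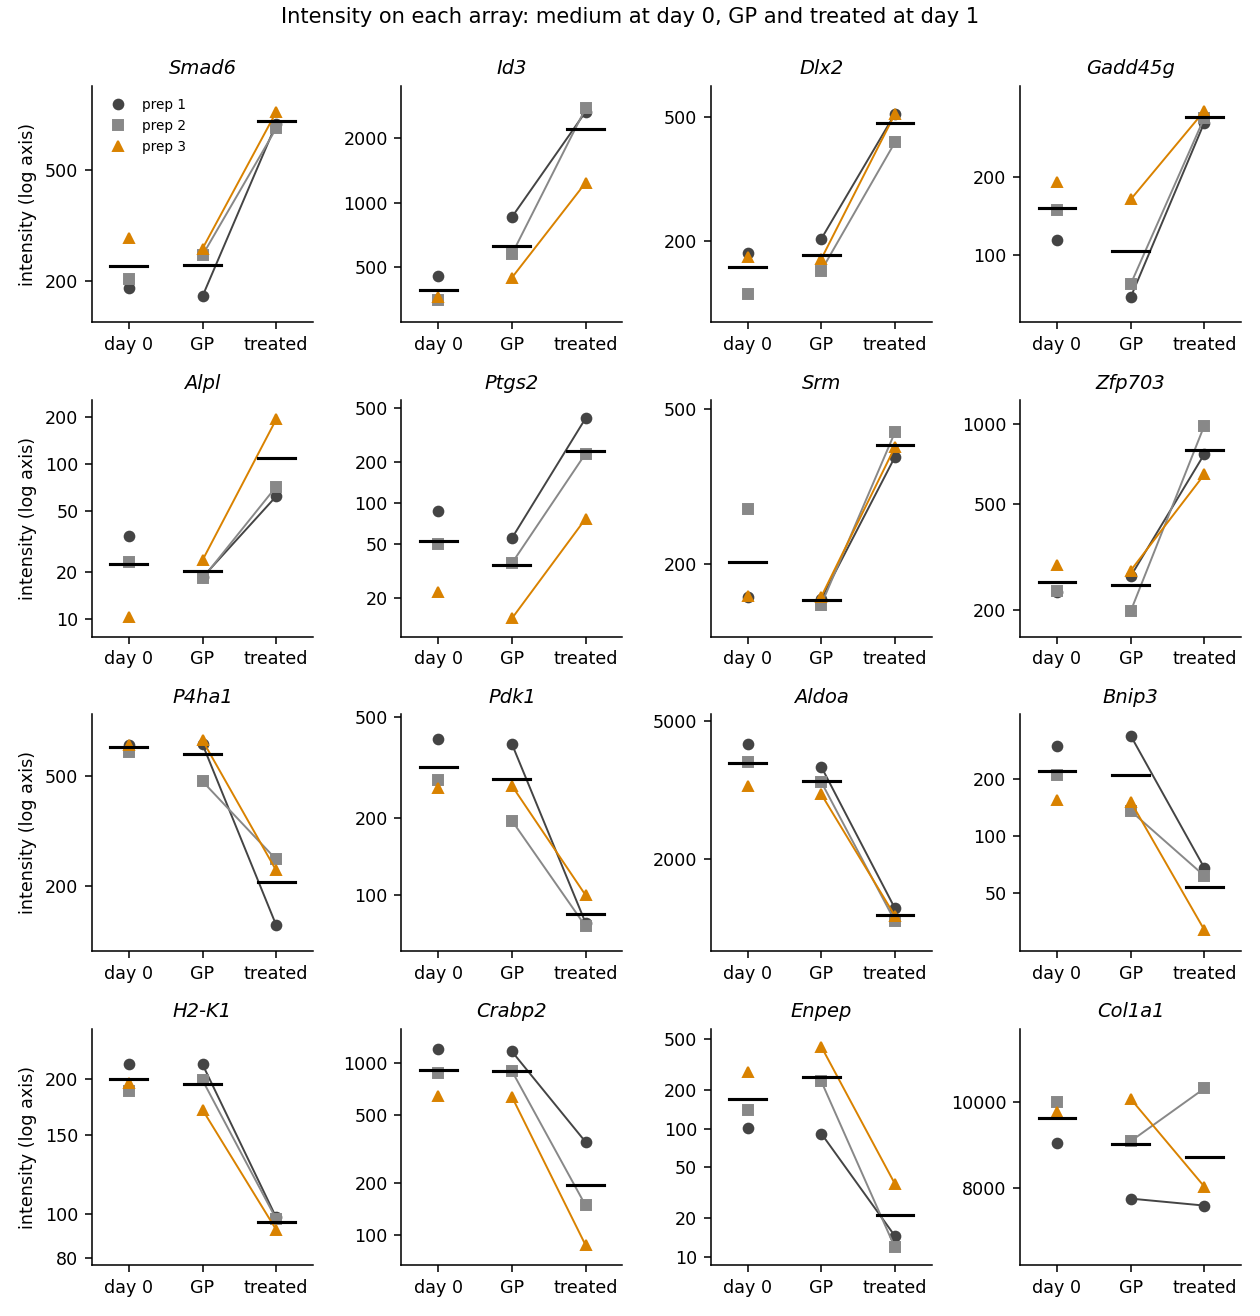
Intensity on each array (vertical, log axis) for 16 genes in medium at day 0 and in GP and treated cultures at day 1; symbols mark preps, lines join the GP and treated arrays of a prep, and bars are means of 3 arrays. Treated arrays of Smad6, Dlx2, P4ha1, Aldoa and Pdk1 lie clear of their GP arrays in every prep, and those of Col1a1 do not.

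Some antigen presentation and interferon genes also fell. Of 12 tested genes of class I antigen presentation, 5 fell and none rose, and the median was -0.66. Without 1 array 2 to 4 fell, fewest without GP prep 2, and 2 did without the prep term. H2-K1, a class I heavy chain, read 215, 198 and 170.5 units with GP and 98.4, 97.6 and 92.4 units in the treated cultures (-1.01 ± 0.13, adjusted p = 0.00102). Tap2, part of the peptide transporter, read 83.1, 120.0 and 87.7 units with GP and 40.7, 51.9 and 45.9 units in the treated cultures (-1.06 ± 0.16, adjusted p = 0.00249). Both had groups that did not overlap. H2-D1, another heavy chain, Tapbp, which loads peptides, and Psmb8, an immunoproteasome subunit, fell, with log2 fold changes of -0.82, -0.65 and -1.11 (adjusted p = 0.0085, 0.0125 and 0.0342). Class I heavy chains have similar sequences and their probe sets carry suffixes for shared sequence, so which gene was read is uncertain. The other probe sets of H2-K1 gave -1.54 and 0.25 and those of Tapbp -0.45 and -0.42, and none of the 4 passed. B2m, the common light chain, differed by -0.27 ± 0.19 (adjusted p = 0.507).

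Of 13 tested interferon response genes, 1 rose and 5 fell, with a median of -0.61, and Psmb8 belongs to this list too. Without 1 array 1 to 2 fell, 2 without treated prep 1 and 1 without each of the other 5 day 1 arrays, and none did without the prep term. Gbp2, an interferon-induced GTPase, read 165, 182 and 72.1 units with GP and 67.4, 43.3 and 21.3 units in the treated cultures (-1.71 ± 0.40, adjusted p = 0.0269). It was low in prep 3 of both groups. Irf1, a transcription factor of the interferon response, read 222, 199 and 183 units with GP and 138.5, 122 and 117 units in the treated cultures (-0.68 ± 0.12, adjusted p = 0.00649), and Psme1, a proteasome activator, fell (-0.61 on the log2 scale, adjusted p = 0.0305). Isg15, a ubiquitin-like modifier, fell (-2.14 on the log2 scale, adjusted p = 0.0393), but its treated arrays, at 8.1, 7.4 and 5.4 units, lay under the filter, and with the floor at 45.7 units its difference was -0.02 (adjusted p = 1). Ifi204, an interferon-inducible DNA-binding protein, was the member that rose. It read 103, 81.2 and 8.0 units with GP and 205, 182 and 76.1 units in the treated cultures (1.80 ± 0.46, adjusted p = 0.0405), the groups overlapped, prep 3 was low in both, and its probe set carries a suffix for shared sequence. Without treated prep 3 its value was 1.09.

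H2-K1 and Tap2 still passed without the prep term, where the adjusted p of the others was 0.207 for H2-D1, 0.174 for Tapbp, 0.0939 for Psmb8, 0.346 for Gbp2, 0.0559 for Irf1, 0.164 for Psme1, 0.164 for Isg15 and 0.720 for Ifi204. Leaving out 1 array, with the term kept, gave up to 0.0664 for H2-D1 (GP prep 2), 0.0747 for Tapbp (GP prep 2), 0.148 for Psmb8 (treated prep 2), 0.125 for Gbp2 (GP prep 2), 0.151 for Psme1 (GP prep 2), 0.160 for Isg15 (GP prep 2) and 0.145 for Ifi204 (GP prep 3). With the floor at 45.7 units Psmb8 had -0.63 (adjusted p = 0.0755).

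Among 17 chemokine and inflammation genes, 4 fell and 1 rose, with a median of -0.56. Without 1 array 2 to 4 fell, and none did without the prep term. The rise was the largest of all called genes. Ptgs2, the inducible cyclooxygenase that starts prostaglandin synthesis, read 55.1, 36.0 and 14.1 units with GP and 421, 231 and 76.6 units in the treated cultures (2.69 ± 0.23, adjusted p = 9.11e-05). Prep 1 was the highest and prep 3 the lowest in both groups, the differences within preps 1, 2 and 3 were 2.93, 2.68 and 2.44, and without the prep term the adjusted p was 0.110. Cx3cl1, a membrane-bound chemokine, read 1656.5, 1284 and 540.2 units with GP and 556, 580.0 and 335 units in the treated cultures (-1.14 ± 0.14, adjusted p = 8.35e-04). Cxcl12, a chemokine of bone stroma, read 1774, 1083 and 548.5 units with GP and 1369, 557 and 213 units in the treated cultures (-0.90 ± 0.23, adjusted p = 0.0353), and its receptor Ackr3 fell (-0.86 ± 0.21 on the log2 scale, adjusted p = 0.0325). The groups of these 3 genes overlapped, with prep 3 low in both. The other probe sets of Cxcl12 gave -0.42 and -0.37 and did not pass. Ccl9, a chemokine that attracts myeloid cells, fell (-2.21 ± 0.41 on the log2 scale, adjusted p = 0.00833), with treated arrays at 18.4, 21.7 and 6.2 units. These lay under the filter, and with the floor at 45.7 units the value was -0.62 (adjusted p = 0.485). Without the prep term the adjusted p was 0.391 for Cx3cl1, 0.807 for Cxcl12, 0.283 for Ackr3 and 0.346 for Ccl9. With the term kept and 1 array left out it reached 0.178 for Cxcl12 (GP prep 2) and 0.165 for Ackr3 (GP prep 2).

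Some genes of growth rose. In ribosome biogenesis 4 of 36 tested genes rose and none fell, 34 differences were positive, and the median was 0.40. Without 1 array 2 to 5 rose, fewest without GP prep 2 or treated prep 2, and 2 did without the prep term. Nhp2, a protein of RNA-modifying particles, read 388, 396 and 468 units with GP and 731, 1015 and 869.5 units in the treated cultures (1.06 ± 0.15, adjusted p = 0.00144). Dcaf13, needed for small-subunit assembly, read 184, 176 and 193.5 units with GP and 325, 353 and 339.8 units in the treated cultures (0.88 ± 0.14, adjusted p = 0.00312). Neither had overlapping groups, and the 3 GP arrays of Dcaf13 were close to each other. Tsr1 and Rrs1, further assembly factors, rose by 0.82 and 0.65 (adjusted p = 0.0125 and 0.0302). In the polyamine list 2 of 5 rose. Srm, spermidine synthase, read 162, 157 and 164 units with GP and 376.5, 436 and 399 units in the treated cultures. Its GP arrays were almost equal and its treated arrays all higher (1.32 ± 0.18, adjusted p = 0.00111), although its probe set carries a suffix for shared sequence. Azin1, which protects the enzyme that makes the first polyamine, rose by 0.85 ± 0.15 (adjusted p = 0.00649).

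In DNA replication 5 of 35 tested genes rose and none fell, 34 differences were positive, and the median was 0.39 (0.24, 0.39 and 0.67 within preps 1, 2 and 3). Rrm2, a subunit of ribonucleotide reductase, read 230.0, 157 and 288 units with GP and 406, 357 and 565 units in the treated cultures (0.99 ± 0.17, adjusted p = 0.00407). It is also the called member of 15 genes of nucleotide and one-carbon synthesis, whose median was 0.35. Mcm2, a helicase subunit, read 259.7, 198.5 and 307 units with GP and 379, 434 and 619.6 units in the treated cultures (0.90 ± 0.17, adjusted p = 0.00946), and Cdc45, its partner at the fork, read 118, 101 and 113 units with GP and 183, 181 and 284 units in the treated cultures (0.94 ± 0.20, adjusted p = 0.0161). The treated arrays of these genes were highest in prep 3, and the groups did not overlap. Mcm7, another helicase subunit, rose by 0.58 ± 0.15 (adjusted p = 0.0355). Without prep 3, 1 of the 35 genes rose, without GP prep 2 also 1, and without the prep term none. Of 34 genes of mitosis and the spindle none was called, with a median of 0.15. Among 19 genes of cell cycle arrest 2 fell, with a median of -0.25. They were Foxo3, a transcription factor that restrains growth, at -0.64 ± 0.13 (adjusted p = 0.0134), and Gas2, a growth arrest-specific protein read by a grouped probe set, at -1.10 ± 0.23 (adjusted p = 0.0161).

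Of 16 cholesterol synthesis genes 2 rose, none fell, 15 differences were positive, and the median was 0.53. Neither rise passed with any 1 day 1 array left out or without the prep term. Fdps, which makes farnesyl diphosphate, read 1622, 1840.0 and 1187 units with GP and 2485, 3571 and 2621 units in the treated cultures (0.90 ± 0.24, adjusted p = 0.0468), and its other probe set gave 0.90 and did not pass. Hsd17b7, a later enzyme, rose by 0.93 ± 0.23 (adjusted p = 0.0306), and with the floor at 45.7 units its value was 0.50 (adjusted p = 0.138). Of 26 genes of pyruvate use and the citric acid cycle, Dlst and Ogdh, subunits of the oxoglutarate dehydrogenase complex, rose by 0.84 and 0.55 (adjusted p = 0.00166 and 0.016) and Pdk1 fell, with a median of 0.09. Dlst read 188, 184 and 188 units with GP and 332, 327 and 342.5 units in the treated cultures, with the arrays of each group almost equal.

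Of the growth and metabolic genes, Nhp2, Dcaf13, Srm and Dlst passed without the prep term. The adjusted p was then 0.313 for Tsr1, 0.226 for Rrs1, 0.0551 for Azin1, 0.0609 for Rrm2, 0.0984 for Mcm2, 0.0554 for Cdc45, 0.166 for Mcm7, 0.467 for Foxo3, 0.588 for Gas2, 0.263 for Fdps, 0.642 for Hsd17b7 and 0.061 for Ogdh. Leaving out 1 array, with the term kept, gave up to 0.0906 for Tsr1 (GP prep 2), 0.178 for Rrs1 (GP prep 2), 0.0524 for Azin1 (GP prep 2), 0.071 for Mcm2 (GP prep 2), 0.0817 for Cdc45 (GP prep 2), 0.177 for Mcm7 (GP prep 2), 0.0983 for Foxo3 (GP prep 2), 0.0841 for Gas2 (GP prep 3), 0.179 for Fdps (GP prep 2), 0.138 for Hsd17b7 (GP prep 3) and 0.0997 for Ogdh (GP prep 2).

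Genes of detoxification, retinoid handling and amino acid supply were among the decreases. In the antioxidant and detoxification list 6 of 28 fell and 1 rose, with a median of -0.12. Without 1 array 3 to 5 fell, and none did without the prep term. Ephx1, microsomal epoxide hydrolase, read 444, 608 and 787 units with GP and 218, 265 and 309 units in the treated cultures (-1.19 ± 0.14, adjusted p = 5.85e-04). Mt2, a metallothionein that binds zinc, read 6119, 3611 and 1147 units with GP and 2705, 1555 and 227 units in the treated cultures, with overlap and with prep 3 low in both (-1.58 ± 0.42, adjusted p = 0.0482). Aldh3a1 and Aldh2, aldehyde dehydrogenases, fell, with log2 fold changes of -1.03 and -0.54 (adjusted p = 0.0271 and 0.0049). Gstm1, a glutathione transferase of a family with similar sequences, fell (-0.91 on the log2 scale, adjusted p = 0.00325), while another probe set gave 0.20. Gclm, the modifier subunit of an enzyme of glutathione synthesis, was the member that rose, by 0.73 ± 0.19 (adjusted p = 0.0423). Of 10 retinoid handling genes 2 fell, with a median of -0.24. Crabp2, a carrier of retinoic acid, read 1166.5, 898 and 636 units with GP and 348, 149 and 87.5 units in the treated cultures (-2.40 ± 0.45, adjusted p = 0.0085). Aox1, an aldehyde oxidase, read 80.0, 151 and 81.4 units with GP and 24.0, 19.3 and 14.4 units in the treated cultures, with treated arrays under the filter (-2.40 ± 0.24, adjusted p = 2.54e-04), and with the floor at 45.7 units the value was -1.12 (adjusted p = 0.0196).

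Of 28 genes of the amino acid response and the transfer RNA synthetases 4 fell and none rose, with a median of -0.03. Slc3a2 and Slc7a5 encode the subunits of an exchanger for large amino acids. Slc3a2 read 1375, 1873 and 1729.6 units with GP and 983, 1149 and 951 units in the treated cultures (-0.68 ± 0.10, adjusted p = 0.00214). Slc7a5 read 294, 387 and 1349 units with GP and 173, 222 and 371 units in the treated cultures (-1.14 ± 0.18, adjusted p = 0.00324), and Psat1, an enzyme of serine synthesis, read 1073, 1219.6 and 2894 units with GP and 555, 659 and 1253 units in the treated cultures (-1.02 ± 0.14, adjusted p = 0.00114). Prep 3 was the highest in both groups for Slc7a5 and Psat1, and the groups overlapped. Atf5, a stress-induced transcription factor, read 158, 293 and 852 units with GP and 98.4, 102 and 75.5 units in the treated cultures (-1.90 ± 0.48, adjusted p = 0.0381). GP prep 3 was the highest array for Atf5, and the difference was -1.10 without prep 3 and -1.16 without treated prep 3.

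Crabp2, Aox1 and Slc3a2 passed without the prep term, where the adjusted p of the others was 0.111 for Ephx1, 0.526 for Mt2, 0.0802 for Aldh3a1, 0.0725 for Aldh2, 0.0961 for Gstm1, 0.109 for Gclm, 0.611 for Slc7a5, 0.495 for Psat1 and 0.307 for Atf5. With the term kept and 1 array left out it reached 0.184 for Mt2 (treated prep 3), 0.168 for Aldh3a1 (GP prep 2), 0.196 for Gclm (GP prep 2), 0.0554 for Crabp2 (GP prep 2) and 0.151 for Atf5 (GP prep 3). Without treated prep 3 the difference of Mt2 was -1.01, and without prep 2 that of Aldh3a1 was -0.58.

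**Figure D3:**
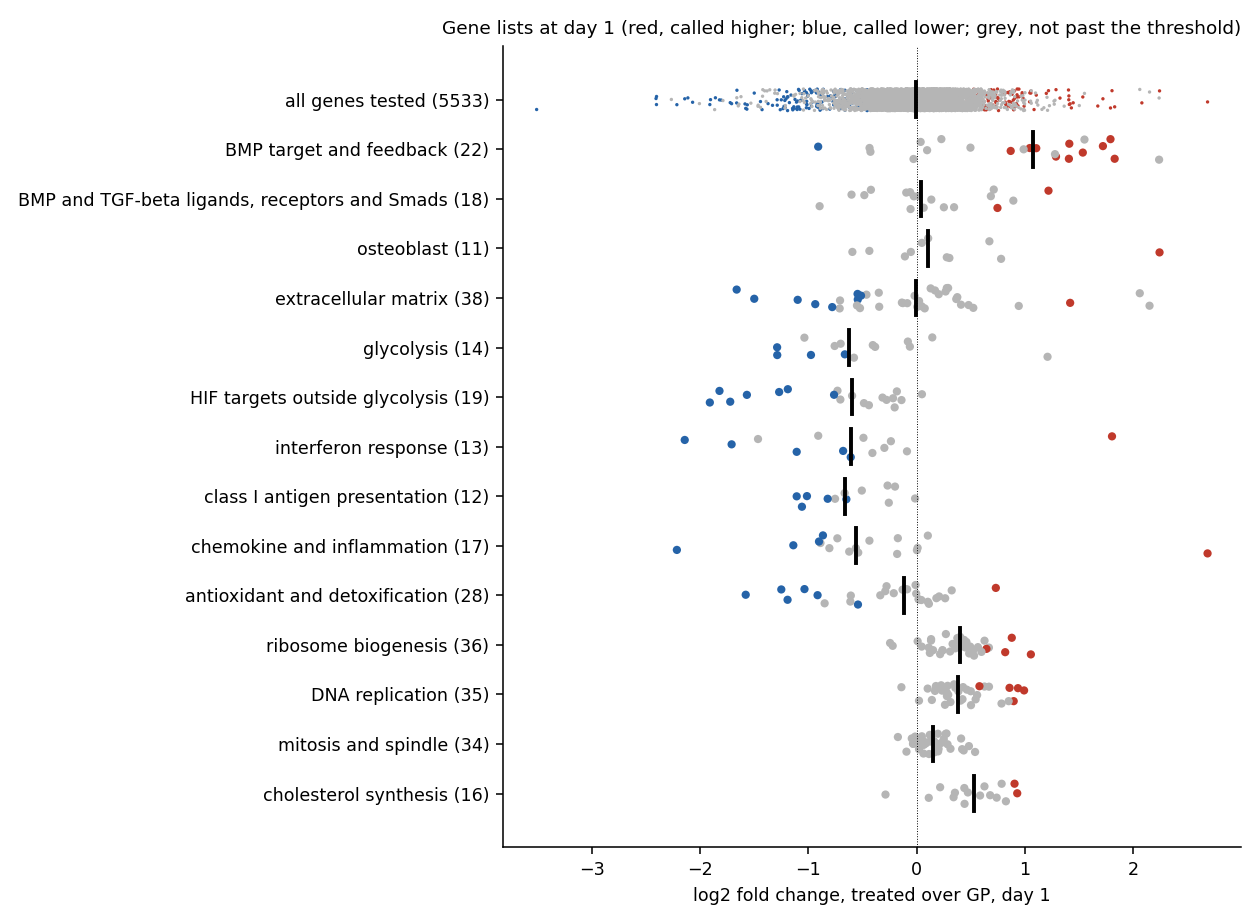
Log2 fold changes at day 1 of the tested genes of 14 lists and of all 5533 genes, 1 point per gene, with the number tested in brackets and a black bar at the median. The bar stands at 1.08 for BMP targets, at -0.62 for glycolysis, at -0.66 for class I antigen presentation and at 0.40 for ribosome biogenesis, and at 0.00 for all genes.

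Several large changes lay in genes of no list. Enpep, a membrane aminopeptidase, had the largest decrease. It read 91.4, 233.5 and 436 units with GP and 14.5, 11.8 and 37.0 units in the treated cultures (-3.51 ± 0.38, adjusted p = 3.62e-04), with no overlap. The treated mean lay under the filter, and with the floor at 45.7 units the value was -2.20 (adjusted p = 0.0225). A second, relaxed probe set of Enpep gave -0.08. Zfp703, a zinc finger transcriptional regulator, read 268.5, 199 and 282 units with GP and 769, 983 and 646 units in the treated cultures (1.67 ± 0.19, adjusted p = 4.10e-04). Tgfbi, an adhesion protein induced by TGF-beta, read 388.5, 405 and 81.2 units with GP and 839, 994 and 299 units in the treated cultures (1.43 ± 0.20, adjusted p = 0.0014). Zfp703 had no overlap, whereas prep 3 of Tgfbi was low in both groups. Dpysl3, a cytoskeletal phosphoprotein, rose by 1.41 ± 0.34 (adjusted p = 0.0287). Npr3, a receptor that clears natriuretic peptides, and Shf, an adaptor protein, rose from GP means under the filter, by 2.08 ± 0.52 and 1.45 ± 0.34 (adjusted p = 0.0336 and 0.0263). With the floor at 45.7 units their values were 0.78 and 0.47 (adjusted p = 0.333 and 0.049).

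Among other decreases, Synpo, an actin-associated protein, read 184, 167 and 207 units with GP and 37.9, 31.1 and 66.8 units in the treated cultures (-2.11 ± 0.22, adjusted p = 2.54e-04). It was the called member of 25 smooth muscle and actin cytoskeleton genes, whose median was -0.05. Tmem37, a membrane protein read by a probe set with shared sequence, read 349, 644 and 207 units with GP and 130.0, 134 and 104 units in the treated cultures (-1.56 ± 0.21, adjusted p = 0.00111), and Tiparp, a target of the aryl hydrocarbon receptor, read 177, 199 and 204 units with GP and 60.9, 41.7 and 105 units in the treated cultures (-1.58 ± 0.31, adjusted p = 0.0111). None of these 3 had overlapping groups. Tnnc1, a troponin, and Cmbl, a hydrolase, fell, with log2 fold changes of -2.40 and -2.07 (adjusted p = 0.0149 and 0.00669) with treated means under the filter, and with the floor at 45.7 units their values were -0.23 and -0.01 (adjusted p = 0.699 and 1). Enpep, Zfp703, Synpo and Cmbl passed without the prep term, where the adjusted p was 0.593 for Tgfbi, 0.104 for Dpysl3, 0.110 for Npr3, 0.0722 for Shf, 0.0939 for Tmem37, 0.0725 for Tiparp and 0.0778 for Tnnc1. Leaving out 1 array, with the term kept, gave up to 0.152 for Dpysl3 (GP prep 2), 0.144 for Npr3 (treated prep 1), 0.142 for Shf (GP prep 2), 0.0705 for Tiparp (GP prep 2) and 0.0861 for Tnnc1 (GP prep 2).

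The remaining lists had few calls, and single calls in them lie near the shares over all genes, 2.4% higher and 3.25% lower. Among 27 immediate early genes, Klf10 rose and Rhob, a small GTPase, fell (-0.76 ± 0.18 on the log2 scale, adjusted p = 0.0242), with a median of 0.07. Of 23 endoplasmic reticulum genes, Sec13, a coat protein of transport vesicles, rose by 0.90 ± 0.11 (adjusted p = 5.85e-04), Sec61a1, a channel subunit, rose by 0.49 ± 0.12 (adjusted p = 0.0352, with 0.43 and no call in its other probe set) and Ero1a fell, with a median of 0.10. Of 21 growth factor and receptor genes, Igf1r, a growth factor receptor, fell (-0.51 ± 0.13 on the log2 scale, adjusted p = 0.0448), with a median of -0.26. None of 22 Wnt pathway genes and none of 36 oxidative phosphorylation genes was called, with medians of -0.11 and 0.04. Sec13 passed without the prep term, where the adjusted p was 0.129 for Rhob, 0.188 for Sec61a1 and 0.157 for Igf1r. With the term kept and 1 array left out it reached 0.0999 for Rhob (GP prep 2), 0.172 for Sec61a1 (treated prep 2) and 0.191 for Igf1r (GP prep 2).

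The day 3 cultures, on other arrays, were set beside day 1. Of the 376 probe sets called at day 1, 254 were called at day 3 with the same sign and 121 were not called there. Counted whether called at day 3 or not, 16 of the 376 had the opposite sign there, which overlaps the 121. Over all probe sets tested 1054 were called at day 3 (14.5%). The difference between the day 3 and day 1 effects was called for none of the genes in limma (0%). At an unadjusted p under 0.05 there were 513 genes. Over the 7271 probe sets there were 645, beside 364 expected by chance. By probe set the difference between days was called 0 times. It was called 4, 1, 18 and 20 times with the higher floor, with quantile normalization, with array weights and without prep 3. Without treated prep 3 at day 1 it was called 6 times. Alpl had 4.58 ± 0.50 at day 3 beside 2.24 at day 1, and Id3 had 3.26 ± 0.30 beside 1.79. Ptgs2 had 0.95 ± 0.23 beside 2.69, and Smad7 had -0.02 ± 0.21 beside 1.11. Tiparp had 0.25 ± 0.31 beside -1.58. Among decreases, Enpep had -5.62 ± 0.38 beside -3.51 and Tnnc1 had -6.07 ± 0.50 beside -2.40. The adjusted p of the difference between days was 0.287, 0.274, 0.0734, 0.200, 0.162, 0.189 and 0.0734 for these 7 genes, so none is shown to differ. In mitosis and the spindle, where no gene was called at day 1, 29 of 34 were called higher at day 3, against 420 of all 5533 genes called higher (7.59%) and 436 called lower (7.88%).

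**Figure D4:**
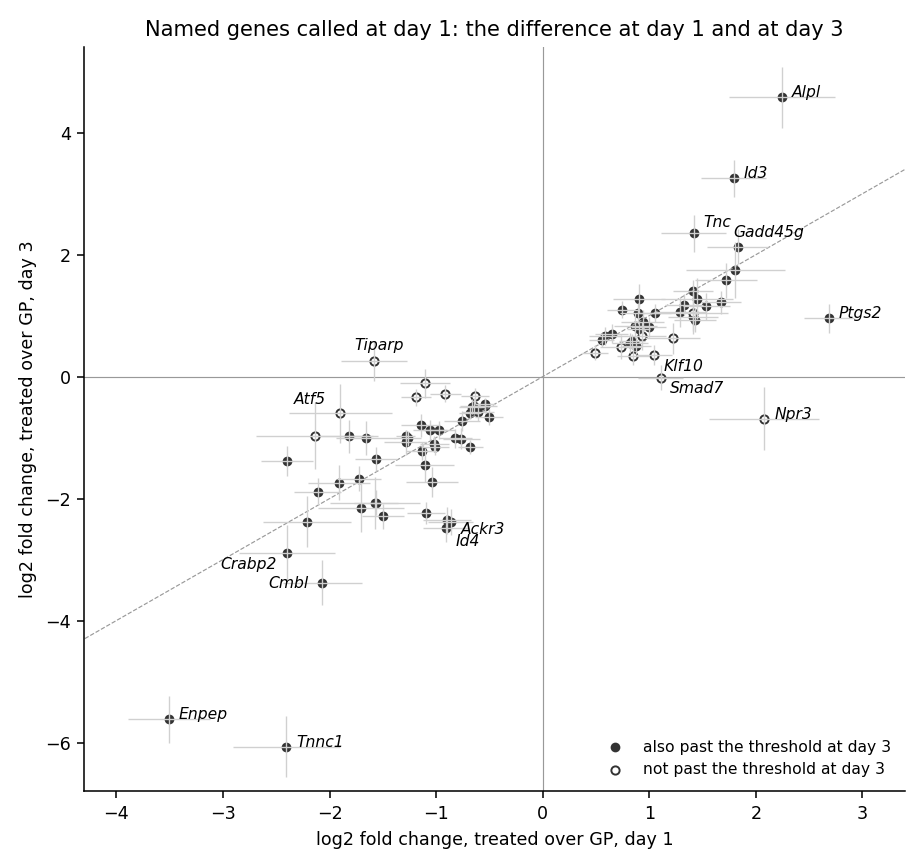
Log2 fold change, treated over GP, at day 1 (horizontal) and at day 3 (vertical) for the 87 named genes called at day 1, with standard errors; filled points also passed at day 3, and the dashed line marks equal values. Alpl and Id3 lie above the line, Enpep and Tnnc1 below it, and Smad7, Npr3 and Tiparp near or across 0 at day 3.

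Levels in growth medium at day 0 showed on which side of the starting level each culture lay. Id3 read 456, 351 and 363 units at day 0 and 856, 574 and 446 units with GP at day 1, above day 0 in each prep, and the treated arrays were higher still. Smad6 read 189.8, 204 and 285 units at day 0, near its GP level of 177, 248 and 262. P4ha1 and Aldoa read 650.5, 615 and 648 and 4284, 3817 and 3251.5 units at day 0, near or above their GP levels and above every treated array. The GP arrays are shared by both readings, so no test was made between them.

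Of the 87 named genes called, 45 passed without each of the 6 day 1 arrays in turn and 42 did not. In all 6 of these fits Fdps, Gbp2, Hsd17b7, Isg15, Psmb8 and Sec61a1 lost their call. Ackr3, Alpl, Atf5, Dlx5, Dpysl3, Gclm, Ifi204, Igf1r, Mcm7, Mt2, Npr3, Psme1 and Rhob lost it in 5 of the 6. With the whole of prep 1, 2 or 3 left out, 44, 22 and 66 of the 87 stayed called. Those lost without prep 2 included Dlx1, Dlx2, H2-K1, Tap2, Nhp2, Dcaf13, Dlst and Ogn. Aldoa, Enpep, Kdm3a, P4ha1, Pdk1, Sec13, Srm, Synpo and Zfp703 passed under all 20 alternatives, and Aox1 passed under the 19 in which it was tested, since the filter at the 60th percentile left it out.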

How the data were processed

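The comparison, its gene lists and its rules were chosen with earlier results of these data known. Expression was measured on 15 single-colour Affymetrix-type oligonucleotide arrays, 3 per group. The authors deposited linear intensities per probe set, and the software that made them is not given in the sources used here. The trimmed mean shows that arrays had been scaled to a common level before they were deposited. Of 12488 probe sets, 66 controls were left out. Values under 2.8 units, the 10th percentile, were set to 2.8, log2 values were taken, and probe sets under the 40th percentile in mean were left out. Gene names came from probe sets with 1 symbol in the platform annotation, 10833 in all, of which 10817 matched the RefSeq gene table of GRCm38.p6. For each gene the probe set with the highest mean was used, and other probe sets of called genes are given where they did not pass.

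All 15 arrays entered a limma fit (limma 3.58.1 under R 4.3.3; eBayes used a mean trend) with 1 coefficient per group and prep as a block, which left 8 residual degrees of freedom. P-values were adjusted over all 7271 probe sets by Benjamini-Hochberg, with calls at 0.05. Errors are standard errors of the fit. The prep block was used because deviations from group means went with the prep number: at day 1, GP and treated arrays of the same number correlated at 0.50, 0.31 and 0.65, and those of different numbers at -0.52 to 0.21. The day 1 values between preps 1 and 2 were 0.21 and 0.16. Over all groups the 30 same-number correlations were 0.19 to 0.71 and the 60 different-number ones -0.58 to 0.27, so the ranges overlapped. Deviations from a group mean cancel out within the group, which by itself makes different-number correlations tend to be negative.

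Named genes were the 12 largest increases and 12 largest decreases called with the same sign in all preps, up to 6 more each way whose lower mean was under the filter, a set of bone and BMP genes, and, for each list and direction, the 4 called genes of lowest p or fewer. Of the set of bone and BMP genes, those not printed were not analysed here. There were 27 gene lists and 7 lists of markers, described by counts and medians with no test of their own. In data simulated from these arrays, the fit called 61 of 100 changes of 1 and 91 of 100 changes of 2 on the log2 scale, and 7 unchanged probe sets among 159 calls. The simulated noise was independent between probe sets and arrays, around the fitted group and prep means. The simulation therefore cannot show whether the prep term holds or whether probe sets shift together on an array. Alternatives varied the block, the arrays fitted, the floor, the filter, the normalization, the mean trend, array weights and each array or prep left out. Promoter sequences were those of RefSeq on GRCm38.p6.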

Additional observations from a re-analysis of the deposited data

How the results depend on the processing

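At day 1 the fit called 156 probe sets higher and 220 lower. The counts were 23 and 47 without the prep block, 95 and 135 without a signal filter, 353 and 437 with array weights, and 48 and 69 without both the block and prep 3, a setting added after the data were seen. Median scaling gave 143 lower and no mean trend gave 93 higher. Leaving out a prep or 1 array gave 8 to 106 higher and 28 to 156 lower, the lowest without prep 2. The difference between days, called 0 times, was called 4 times with the floor at the 50th percentile, 1 time with quantile normalization, 18 times with array weights and 0 to 20 times when a prep or array was left out. Col1a1, which was not called, turned from -0.05 to 0.042 with quantile normalization and to 0.086 without the block and prep 3, and with a prep or array left out it ran from -0.18 to 0.086. Nog, also not called, ran from -0.046 to 0.21. The cause of these changes was not tested, except that fits with fewer arrays have fewer degrees of freedom. Of the 376 calls, 350 were kept with quantile normalization, 245 with median scaling, 373 with a floor at 9.3 units and 376 with array weights. Signal over background limits the sizes of genes whose lower group mean was under the filter, 20 of the 376 calls, and 3 arrays per group limit every call.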

Other observations

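Genes that serve the secretory pathway, chosen after their values were seen and so without support from their number, were among those called higher at day 1. Lrrc59, which aids ribosome binding to the endoplasmic reticulum, read 734, 709 and 870.3 units with GP and 1239, 1335.5 and 1484 units in the treated cultures (0.81 ± 0.11, limma adjusted p = 0.00116). Srpr, a subunit of the signal recognition particle receptor, read 674.5, 682 and 710.4 units with GP and 983, 1069 and 1049.7 units in the treated cultures (0.58 ± 0.10, adjusted p = 0.00444). Ckap4, Yif1a, Yipf5, Kdelr3 and Stx18, proteins of the endoplasmic reticulum and Golgi, rose by 0.73, 0.69, 0.48, 0.53 and 0.64 (adjusted p = 0.0323, 0.0194, 0.0149, 0.041 and 0.0437). Without the prep term Lrrc59 and Srpr passed, and the adjusted p was 0.107 for Ckap4, 0.0717 for Yif1a, 0.387 for Yipf5, 0.481 for Kdelr3 and 0.141 for Stx18.

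Pla2g4a, the phospholipase that releases the substrate of cyclooxygenase, rose by 1.09 ± 0.21 (adjusted p = 0.0107, 0.471 without the prep term). It read 207, 174 and 91.9 units with GP and 458, 324 and 213 units in the treated cultures, with prep 3 low in both groups. Ahr, the aryl hydrocarbon receptor, fell from 70.5, 89.2 and 156 to 47.4, 57.2 and 48.0 units (-0.97 ± 0.24, adjusted p = 0.0331, 0.232 without the prep term), and its day 3 difference was 0.36 ± 0.24 (adjusted p = 0.373). Rspo2, a secreted enhancer of Wnt signalling, fell from 251, 172 and 96.9 to 128, 57.7 and 45.1 units (-1.22 ± 0.23, adjusted p = 0.00833, 0.398 without the prep term). Cd34, a sialomucin of progenitor cells, fell from 266, 285 and 215 to 151, 116 and 76.2 units (-1.20 ± 0.18, adjusted p = 0.00241, 0.04 without the prep term). Lgals3, a galactose-binding lectin, fell from 1063, 1049 and 396 to 375, 349 and 174 units (-1.43 ± 0.18, adjusted p = 8.32e-04, 0.267 without the prep term). These genes too were chosen after their values were seen, and single arrays were not left out for them.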
